A study of Rattus norvegicus with 4 samples.

Results

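The enzymes that turn arachidonic acid into leukotrienes and prostanoids were examined in exposed NR8383 cells, as 10 rat genes measured by 13 probes, out of 16581 named genes and 21109 named probes on the array. A probe belonged to the set if the RefSeq accession given for it in the files maps to Pla2g4a, Alox5, Alox5ap, Lta4h, Ltc4s, Ptgs1, Ptgs2, Tbxas1, Ptges or Hpgds. NR8383 is a macrophage line derived from rat lung lavage. The 4 samples are biological replicates, per the series' design text, of cells kept for 48 h in flasks and exposed for 4 h to 1.2 cm² per cm² of NRCWE049, carbon nanotubes carrying NH2 groups; the labels give 20 passages and a mixed culture of adherent and floating cells. Unexposed control arrays were not analysed here, so every value describes exposed cells and none shows what the nanotubes changed. All 4 samples come from 1 cell line, and the file headers place their arrays on 1 slide and in 1 scan.

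Eicosanoid synthesis begins when cytosolic phospholipase A2 cuts arachidonic acid from membrane phospholipids. In the leukotriene branch, 5-lipoxygenase, helped by its activating protein at the nuclear membrane, makes leukotriene A4, from which other enzymes make the neutrophil attractant leukotriene B4 or the cysteinyl leukotriene C4. In the prostanoid branch, the cyclooxygenases make prostaglandin H2, which terminal synthases turn into thromboxane A2, prostaglandin E2 or prostaglandin D2. Alveolar macrophages are a known source of both kinds of mediator.

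The promoters of 4 genes are shown because they cover 3 genes whose RNA was clearly measured (Alox5, Tbxas1 and Ptgs1) and the paralogue of Ptgs1 whose RNA was at background (Ptgs2). Each is the 250 bases before the gene's start, from RefSeq, build GRCr8, 5′ to 3′ on the gene's strand, at chr4:151251127-151251376 (minus strand), chr4:68631635-68631884 (plus), chr3:39981169-39981418 (plus) and chr13:64713813-64714062 (plus). Capitals mark the motifs searched, on both strands: GGGCGG, the GC box of Sp1-type factors; TATAAA, the TATA box; GAGGAA, a core of PU.1-type sites; CACGTG, the E-box; and TGACGT, part of the cAMP response element.
Alox5: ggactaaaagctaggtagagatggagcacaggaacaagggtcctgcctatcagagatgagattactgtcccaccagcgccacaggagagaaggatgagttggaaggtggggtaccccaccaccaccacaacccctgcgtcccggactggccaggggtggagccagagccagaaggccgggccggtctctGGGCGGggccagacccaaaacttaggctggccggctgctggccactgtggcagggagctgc
Tbxas1: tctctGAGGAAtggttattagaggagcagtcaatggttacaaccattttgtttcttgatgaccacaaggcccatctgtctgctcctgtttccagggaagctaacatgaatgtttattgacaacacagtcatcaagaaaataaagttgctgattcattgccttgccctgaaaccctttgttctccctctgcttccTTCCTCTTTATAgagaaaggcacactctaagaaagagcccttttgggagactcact
Ptgs1: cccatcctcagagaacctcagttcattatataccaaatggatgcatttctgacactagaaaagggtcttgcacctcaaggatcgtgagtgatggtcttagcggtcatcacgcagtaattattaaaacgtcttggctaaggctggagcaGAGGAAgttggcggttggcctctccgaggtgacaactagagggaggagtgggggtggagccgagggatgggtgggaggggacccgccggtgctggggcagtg
Ptgs2: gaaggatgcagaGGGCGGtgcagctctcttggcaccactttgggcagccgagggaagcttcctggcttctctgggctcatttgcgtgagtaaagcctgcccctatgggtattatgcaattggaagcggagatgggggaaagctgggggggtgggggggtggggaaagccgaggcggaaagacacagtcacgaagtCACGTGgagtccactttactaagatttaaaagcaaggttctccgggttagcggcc
The Alox5 window held 1 GGGCGG, starting 61 bases before the gene's start. Tbxas1 held GAGGAA at 245 bases and, on the other strand, at 56 bases, with TATAAA on that strand at 50 bases. GAGGAA stood at 102 bases in Ptgs1. Ptgs2 had GGGCGG at 238 bases and CACGTG at 55 bases. No marked motif overlapped another in these 4 windows. Promoters were listed for 8 of the 10 genes. GGGCGG was found in 4 of the 8, against 30.5% of all 33469 listed promoters of the same length, and GAGGAA in 4 of 8, against 23.3%. GC content was 42.4 to 62.8% in the 8 windows and 57.2% or more in those holding GGGCGG. The median over all listed promoters was 51.2%, and the shares were not matched for GC content. TATAAA was found in 2 of 8 (12.9% of all), CACGTG in 1 (5.59%) and TGACGT in 0 (6.95%). These matches describe the letters of the windows only.

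Agilent's software flags each spot whose signal lies well above its background; a probe counted as detected where that flag held on 4 of 4 arrays, and a gene where at least 1 of its probes was. By that rule 5 of the 10 genes were detected, Pla2g4a, Alox5, Lta4h, Ptgs1 and Tbxas1, while Alox5ap, Ltc4s, Ptgs2, Ptges and Hpgds were not. Of all named genes, 52.5% were detected, so the share of detected synthesis genes lay near that of the array. The share was 48.8% of the 12923 genes with 1 probe and 65.7% of the 3658 genes with several, and 7 of the 10 synthesis genes have 1 probe. Under 2 more lenient rules, Agilent's weaker flag, for a positive signal that differs significantly from background, and a signal above the 95th percentile of the array's negative controls on all arrays, 8 of 10 counted as detected. Alox5ap, Ltc4s and Ptges were the additions, and Ptgs2 and Hpgds stayed out under both; the share of all named genes was then 61.7% and 61.0%. The lowest signal flagged well above background was 16.6, 18.0, 20.1 and 20.1 on the arrays of replicates 1 to 4. The 95th percentile of the negative controls was 4.72, 4.94, 5.41 and 5.68. None of the 295 to 298 negative control spots used per array was flagged well above background, and 1 to 9 were flagged positive and significant.

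**Figure D1:**
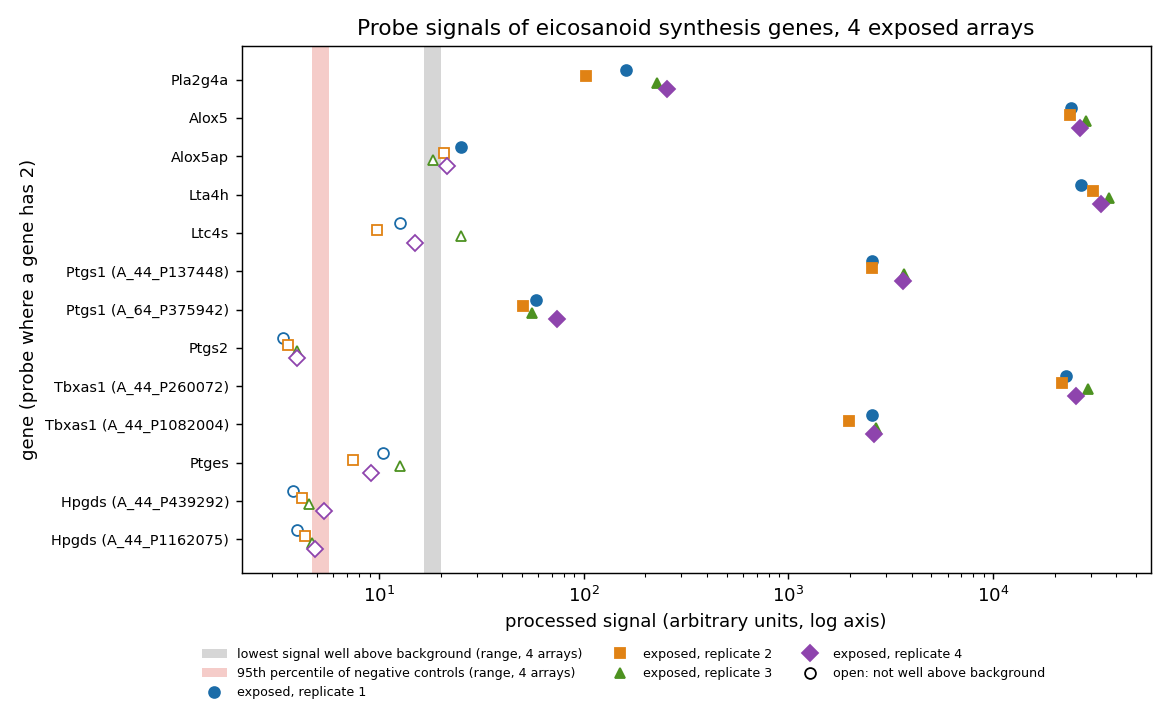
Processed signal (arbitrary units, log axis) of each of the 13 probes on the 4 exposed arrays, with filled symbols where well above background. The shaded bands give the range over arrays of the lowest signal flagged well above background and of the 95th percentile of negative controls. Probes of Alox5 and Lta4h and the brighter probe of Tbxas1 lie at 21795 or higher. Those of Alox5ap, Ltc4s and Ptges lie below, in or a little above the band of the lowest flagged signal, and some values above it are not flagged. Those of Ptgs2 and Hpgds lie at or below the upper end of the band of the negative controls, mostly at the floor of the processed signal.

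The cells carried macrophage transcripts. Of 15 measured macrophage and alveolar macrophage markers 12 were detected, among them Cd68, Csf1r, Spi1 and Pparg, and Adgre1, Marco and Car4 were not. Taken apart, the macrophage and myeloid list had 9 of 10 detected and the alveolar macrophage list 3 of 5 (60%), with Chil3 and Itgax not measured. Of 35 measured markers of mast cells, platelets, eosinophils, neutrophils, epithelium, fibroblasts and endothelium, 8 were detected. By the same rule 52.5% of all named genes were detected, so the alveolar macrophage share lay near that of the array. Cells of other types also carry some of the enzymes studied here, so their markers matter: the mast cell genes Kit, Ms4a2 and Fcer1a and the platelet genes Pf4, Ppbp and Gp1ba were not detected, while Hdc of the mast cell list and Gp9 of the platelet list were. Of the neutrophil list 2 of 6 measured genes were detected, Camp (0.44 ± 0.15, SD, n = 4) and S100a8 (-5.14 ± 0.48), and of the eosinophil list 2 of 5, Prg2 (-5.94 ± 0.10) and Siglec5 (-5.41 ± 0.40). Pecam1 and Cdh5 of the fibroblast and endothelium list were also detected, and none of 6 epithelial markers was. The part of such cells in the levels of the synthesis genes was not tested. In RNA from a whole culture, fewer cells carrying a transcript and less transcript per cell cannot be told apart.

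Pla2g4a encodes cytosolic phospholipase A2 alpha, which releases arachidonic acid. Its probe (1 spot, accession NM_133551) gave processed signals of 162, 103, 228 and 255 in replicates 1 to 4, with Agilent's estimated errors of 16.7, 11.3, 23.4 and 26.1. Replicate 2 was lowest and replicate 4 highest, on every array at least 20.8 times the 95th percentile of the negative controls. As a level, which is the log2 signal relative to the 75th percentile over the detected probes of the same array, Pla2g4a stood at -3.61, -4.27, -3.45 and -3.24 (mean -3.64 ± 0.44, SD, n = 4). Levels follow one gene between replicates and are not compared between genes, since probes differ in how they bind.

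Alox5 encodes 5-lipoxygenase, which oxygenates arachidonic acid in the first steps of leukotriene synthesis. The probe (2 spots, NM_012822) gave 23963, 23678, 28543 and 26694 in replicates 1 to 4. The array of replicate 3 was brightest in raw signal, but after scaling the levels were 3.60, 3.58, 3.52 and 3.47 (mean 3.54 ± 0.06, SD, n = 4), with replicate 1 highest and replicate 4 lowest. The highest replicate exceeded the lowest 1.1-fold.

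Alox5ap encodes the 5-lipoxygenase activating protein, FLAP, a membrane protein that presents arachidonic acid to the enzyme. Its 1 spot (NM_017260) gave 25.0, 20.7, 18.3 and 21.4, with estimated errors of 4.62, 4.66, 4.98 and 5.21. It was flagged well above background in replicate 1 alone and positive and significant on all 4 arrays, at 3.38 to 5.31 times the 95th percentile of the negative controls. The level was -6.69 ± 0.34 (SD, n = 4).

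Lta4h encodes leukotriene A4 hydrolase, which makes leukotriene B4. Its probe was printed as 10 spots per array (NM_001030031), of which 8 or 9 remained after outlier flags, and gave 26842, 30919, 36904 and 33644. The levels were 3.77, 3.96, 3.89 and 3.81 (mean 3.86 ± 0.09, SD, n = 4). Replicate 2 was highest and replicate 1 lowest, 1.15-fold apart. Within an array the spots had an SD of 0.0396 on the log2 scale, so spot noise alone would give array means an SD of 0.0134, against the 0.0872 observed between arrays. Spot noise leaves out the noise of labelling and hybridisation, so these values do not show whether the cultures differed.

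Ltc4s encodes leukotriene C4 synthase, which joins glutathione to leukotriene A4. Its 1 spot (NM_053639) gave 12.7, 9.75, 25.1 and 15.0 with estimated errors between 4.6 and 5.70, and it was well above background on no array. The level was -7.23 ± 0.43 (SD, n = 4). The range between replicates depended on the setting: 2.04-fold as processed here, 1.31 without replicate 3, 1.11 with normexp background correction and 2.45 with quantile normalization, so at this signal no order between replicates is given. In the leukotriene branch, then, the genes of the oxygenase and the hydrolase were detected on every array. The probes of FLAP and the C4 synthase gave signals between the negative controls and the detection limit or little above it. Each of these genes rests on 1 probe, and a probe that binds poorly cannot be told from little RNA. The 2 probes of Ptgs1, for instance, had mean signals of 3097 and 59.8.

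**Figure D2:**
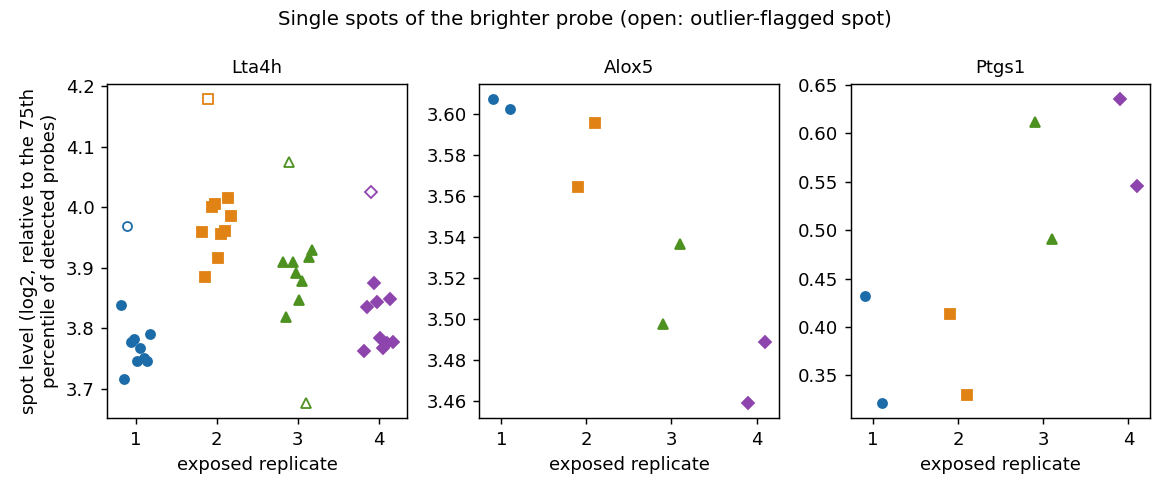
Level of every spot (log2 relative to the 75th percentile of detected probes) on the 4 exposed arrays for the probe of Lta4h, the probe of Alox5 and the brighter probe of Ptgs1; open symbols are spots left out for an outlier flag, and the vertical scales differ. The Lta4h spots used in replicate 2 all lie above those used in replicates 1 and 4, and 1 Lta4h spot lies above the others on every array.

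Ptgs1 encodes cyclooxygenase 1, the form that many cells make constantly. Its brighter probe (A_44_P137448, 2 spots, NM_017043) gave 2558, 2562, 3653 and 3617, or levels of 0.38, 0.37, 0.55 and 0.59 (mean 0.47 ± 0.11, SD, n = 4). Replicates 3 and 4 were above replicates 1 and 2. Its other probe (A_64_P375942, 1 spot) gave 58.2, 50.7, 55.8 and 74.4, was also well above background on all 4 arrays, and ordered the replicates differently (levels -5.08, -5.29, -5.48 and -5.01), with replicate 3 lowest. Replicate 4 was thus highest with both probes, and replicate 3 was high with 1 of them.

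Ptgs2 encodes cyclooxygenase 2, the form that inflammatory stimuli induce in macrophages. Its 1 spot (NM_017232) had background-subtracted signals of -4.50, 0.54, -7.75 and -2.11 in replicates 1 to 4, against estimated errors of 3.42, 3.61, 4.01 and 3.99. In the negative controls of the same arrays the background-subtracted signal had a median of -3.67, -3.32, -4.11 and -3.07 and a 95th percentile of 1.88, 2.45, 2.26 and 3.06. Ptgs2 was therefore not above background with this probe in the cells exposed for 4 h, and its replicates have no order. Its processed signals (3.41, 3.60, 4.00 and 3.98) lie at the floor that Agilent's software sets for such spots: on each array, 100% of the spots not flagged positive and significant had a processed signal within 2% of their estimated error.

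Tbxas1 encodes thromboxane A synthase, a cytochrome P450. Its brighter probe (A_44_P260072, 1 spot, NM_012687) gave 22811, 21795, 29164 and 25511, or levels of 3.53, 3.46, 3.55 and 3.41 (mean 3.49 ± 0.07, SD, n = 4). The other probe (A_44_P1082004, 1 spot) gave 2548, 1979, 2683 and 2634, at levels of 0.15 ± 0.16 (SD, n = 4). Both probes were well above background on every array, and they ranked the replicates differently: replicate 3 was highest and replicate 4 lowest by the first, replicate 1 highest and replicate 2 lowest by the second.

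Ptges encodes the inducible microsomal prostaglandin E synthase. Its 1 spot (NM_021583) gave 10.5, 7.46, 12.7 and 9.11 with estimated errors between 4.6 and 5.35. It was positive and significant on all 4 arrays and well above background on none. Hpgds encodes the haematopoietic prostaglandin D synthase, known from mast cells and macrophages. One probe (A_44_P1162075, XM_006236602) had background-subtracted signals of -1.10, 3.59, -2.67 and -2.82, and the other (A_44_P439292, NM_031644) had 1.06, 2.52, 0.90 and 5.34. The first was flagged positive and significant on no array, and the second in replicate 4 alone, at a background-subtracted signal of 5.34 against a 95th percentile of 3.06 in the negative controls. In replicate 2 both probes (3.59 and 2.52) also lay above that percentile (2.45) without being flagged, and the other values lay below it. On the processed scale, which includes the floor, no Hpgds value passed the 95th percentile of the negative controls. Hpgds was thus at or near background with both probes. Among the 5 prostanoid genes of the set the detected ones were the constitutive cyclooxygenase and the thromboxane synthase.

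Whether any of these genes varied between the 4 replicates more than others of its brightness was the question a design with 1 group could test. None of the 5 detected genes did at an adjusted p of 0.05, by limma's F test of residual variances with Benjamini-Hochberg adjustment over 8713 detected genes (0.0115% of them called, 1 gene, Selenop). At an unadjusted p under 0.05 there was 1 of the 5, Pla2g4a, against 4.30% of all tested genes. Pla2g4a had an SD of 0.44 where 0.199 was expected at its level (limma, unadjusted p = 0.04998, adjusted p = 0.969), with replicate 2 lowest. The lowest adjusted p among the 5 genes ran from 0.793 to 0.991 over 14 other settings. The SD of Pla2g4a was above that of 97.0% of the 500 genes closest to it in level. Its highest and lowest replicates differed 2.04-fold, and 1.29-fold without replicate 2. Around its spot, up to 5 rows and columns away, the spots of other genes had median deviations from the other arrays of -0.07 to 0.12, and no spot of the 10 genes lay in a dim area of an array.

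**Figure D3:**
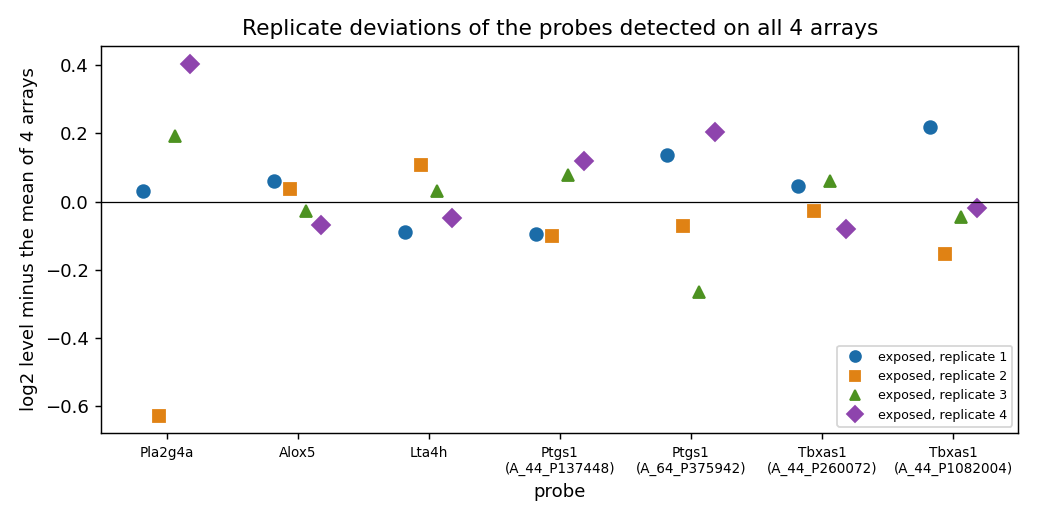
Level of each probe detected on all 4 exposed arrays minus its mean over the arrays (log2), by replicate. Pla2g4a has the widest spread of these probes, with replicate 2 at -0.63 and replicate 4 at 0.40, and the 2 probes of Ptgs1 and of Tbxas1 do not rank the replicates alike.

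By their brightest detected probe, the other detected genes were close to or tighter than genes of like level. The share of the 500 genes nearest in level with a smaller SD was 18.6% for Alox5, 23.8% for Tbxas1 (brighter probe), 40.6% for Lta4h and 51.8% for Ptgs1 (brighter probe). By the same probes the ratio of highest to lowest replicate was 1.1 for Alox5 and Tbxas1, 1.15 for Lta4h and 1.16 for Ptgs1. The median over all detected genes, of any level, was 1.26. The other probes gave wider ratios, 1.29 for Tbxas1 (SD 0.16) and 1.38 for Ptgs1 (SD 0.21). Their spread was not set against genes of like level. The SD expected at the level of Alox5, Tbxas1, Lta4h and Ptgs1 was 0.116, 0.115, 0.117 and 0.12, below the 0.199 expected at that of Pla2g4a. Replicates 3 and 4 were closer to each other than any other pair. Their median absolute log2 difference over detected genes was 0.0847, against 0.149 to 0.206 for the other pairs. From replicate spots alone 0.0692 was expected, a value taken from 1039 probes printed as 10 spots. Replicates 3 and 4 were kept apart because the design text gives 4 biological replicates. Spot noise leaves out the noise of labelling and hybridisation, so these values do not show whether the RNAs differed. Averaged and counted as 1 sample, they left 0 of the 5 genes called by limma's F test, with Pla2g4a still under an unadjusted p of 0.05. Over all named genes 9 were then called, against 1 in the main setting.

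**Figure D4:**
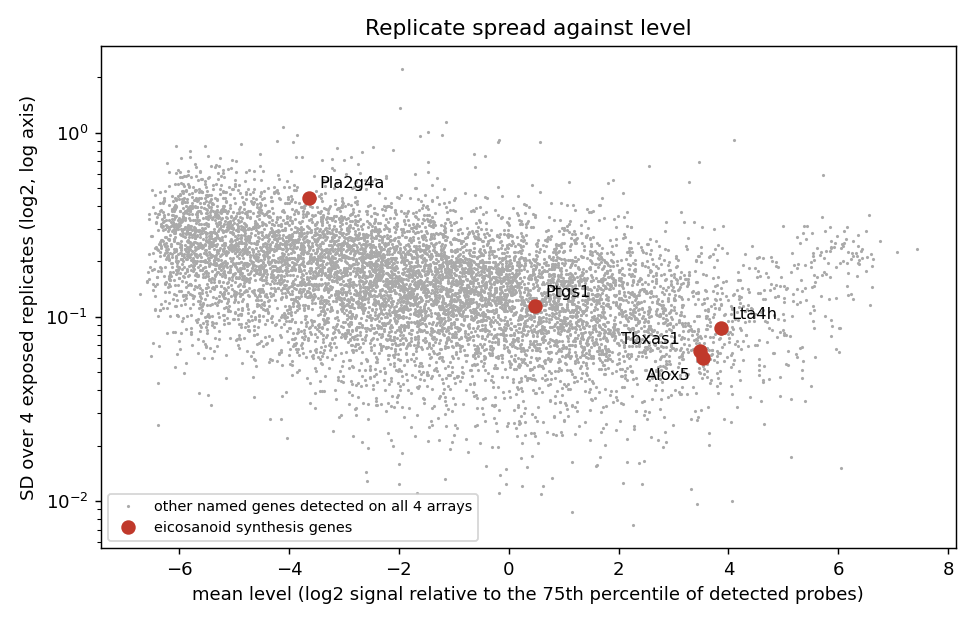
SD over the 4 exposed replicates (log2, log axis) against mean level for 8713 genes detected on all arrays (grey), with the 5 detected synthesis genes in red, each by its brightest detected probe. Pla2g4a lies in the upper edge of the cloud at its level, and Alox5, Tbxas1, Lta4h and Ptgs1 lie within it or below its middle.

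Around the 10 genes, 69 of 72 other genes of the pathway were measured and 42 of them (60.9%) were detected, against 52.5% of all named genes. The lists were chosen with earlier results of these data known, so their shares are not an independent comparison. Of 13 phospholipases A2 and other genes of arachidonate release, 7 were detected. Pla2g4b and Pla2g5 were not, and Pla2g4c was not measured; the calcium-independent phospholipase Pla2g6 (-1.13 ± 0.21, SD, n = 4) and Pla2g7, which inactivates platelet-activating factor (1.90 ± 0.16), were among those detected and are named after their values were seen. Of 7 genes listed under arachidonate reacylation, which activate fatty acids or add them to phospholipids, 6 were detected, Lpcat1 being the exception. All 8 listed regulators and partners of 5-lipoxygenase and cytosolic phospholipase A2 were detected, including Cotl1, which encodes a protein that binds 5-lipoxygenase (4.24 ± 0.09), Anxa1 (3.24 ± 0.16) and the kinase gene Mapkapk2 (2.72 ± 0.02).

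Other enzymes of the branches were detected in part. Of 6 other lipoxygenases, Alox12b alone was detected (-5.31 ± 0.28, SD, n = 4), and Alox12, Alox15, Alox15b, Aloxe3 and Alox12e were not. Among 7 other prostanoid synthase genes 5 were detected, including Ptges2 (-1.33 ± 0.21) and Ptges3 (1.57 ± 0.04), which encode other prostaglandin E synthases, and the prostacyclin synthase gene Ptgis and the lipocalin-type prostaglandin D synthase gene Ptgds were not. Of 7 genes related to Ltc4s or acting on its product, 4 were detected. They included Mgst2 (2.88 ± 0.06), which encodes a microsomal glutathione transferase able to make leukotriene C4, and Dpep2 (-0.94 ± 0.07), a dipeptidase gene, while Ggt1, Ggt5 and Dpep1 were not detected. Transport and breakdown had 5 of 7 genes detected, among them the leukotriene C4 exporter gene Abcc1 (-0.84 ± 0.26) and Ptgr1 (-2.02 ± 0.16), and the prostaglandin transporter gene Slco2a1 and the dehydrogenase gene Hpgd were not.

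Genes listed as receptors for the products were detected in part, and the difference between the 2 receptor lists was not tested. Of 5 genes listed here as leukotriene receptors, Gpr17 alone was detected (-5.24 ± 0.31, SD, n = 4). The leukotriene B4 receptor genes Ltb4r and Ltb4r2 and the cysteinyl leukotriene receptor genes Cysltr1 and Cysltr2 were well above background on no array. Of 9 prostanoid receptor genes 5 were detected (by the same rule, 52.5% of all named genes). These were Ptger2 (-1.50 ± 0.24), Ptgir (-3.34 ± 0.07), Tbxa2r, the thromboxane receptor gene (-3.79 ± 0.14), Ptgdr (-5.66 ± 0.33) and Ptgdr2 (-5.77 ± 0.07). Ptger4 was well above background on 3 of 4 arrays, Ptger1 on 1, and Ptger3 and Ptgfr on none. Under both lenient rules all 9 prostanoid receptor genes counted as detected, where the share of all named genes was 61.7% and 61%. Those added have 2 or 3 probes each, the 5 others have 1, and a gene counted where any 1 probe passed. By the main rule 65.7% of genes with several probes were detected, against 48.8% of those with 1. The all-gene shares are therefore not matched to these receptors in number of probes. No gene of the 9 lists passed the variance test (limma, adjusted p), and 0 did at an unadjusted p under 0.05.

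**Figure D5:**
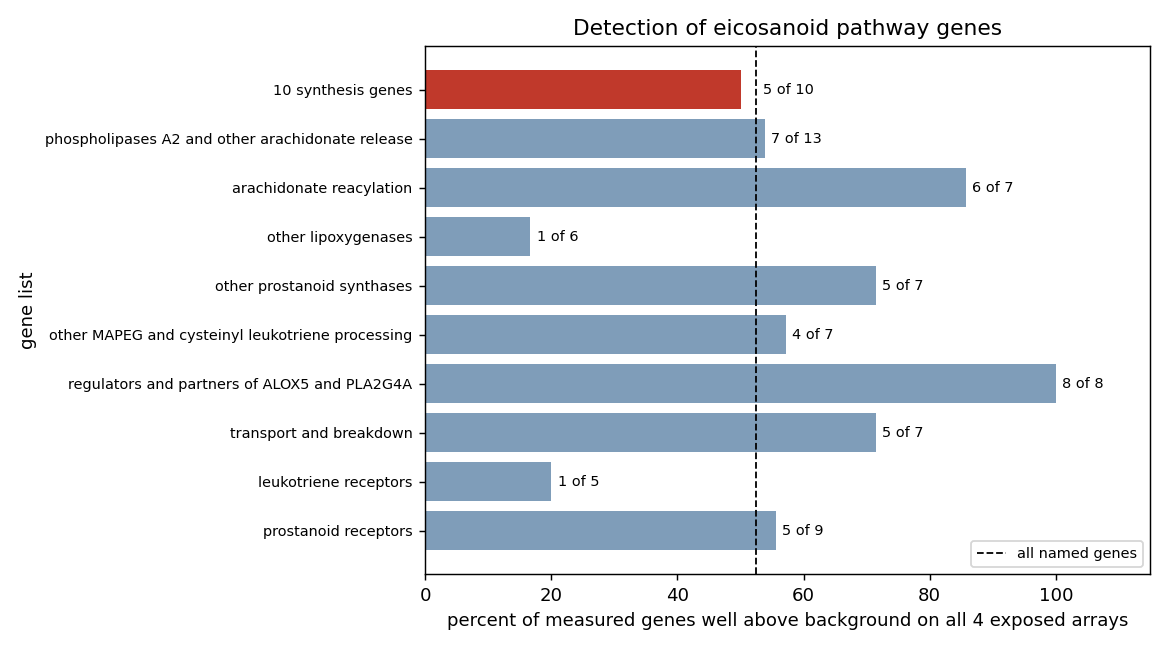
Percent of the measured genes of each list that were well above background on all 4 exposed arrays, with counts beside the bars; the dashed line is the share of all named genes (52.5%). The 10 synthesis genes lie near that line, other lipoxygenases (1 of 6) and leukotriene receptors (1 of 5) below it, and regulators (8 of 8) above it. The lists were chosen with earlier results of these data known.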

How the data were processed

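Total RNA of 4 exposed NR8383 cultures was hybridised to Agilent rat arrays in one colour (Cy3), from 100 ng of RNA with an RNA integrity number above 7.5, per the labels' protocols. Per the file headers, the deposited intensity is the processed signal, background-subtracted by Agilent's Feature Extraction 11.0.1.1. Scaling between arrays by the authors is not stated in the labels or headers.

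Control spots and spots with outlier flags were left out, and log2 values of a probe's spots were averaged. Because 39.3% of 45598 probes were detected on all arrays, levels are relative to the 75th percentile over these probes, at signals of 1969.6, 1980.1, 2493 and 2402.5 in replicates 1 to 4. No spot was saturated. A gene's level came from its brightest detected probe, or its brightest where none was detected. Accessions were matched without versions to a RefSeq table of GRCr8; the file headers name the build rn4, so no coordinates of probes or genes are given other than the promoter windows of the RefSeq table, on GRCr8. The number of arrays limits the precision.

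The variance between replicates was tested in R 4.3.3, using limma 3.58.1 (intercept fit, prior variance following the level) over detected genes, and the script was tested on simulated data. Figures used matplotlib 3.10.9 in Python 3.11.15. Named are all 10 genes; of each pathway list the members on the minority side of detection where these are 5 or fewer, otherwise the first 3; and genes said to be chosen after their values were seen. Further list members are named as examples. The 10 genes and the lists were chosen with earlier results of these data known. Alternatives were other detection rules, scalings, normexp background correction of the median signals (offset 50), outlier flags, probe choice, filters, variance models, dim areas and leaving out each replicate. Dim areas were blocks of a 12 by 10 grid in which over 10% of at least 10 detected spots lay 1 log2 unit or more below the other arrays.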

Additional observations from a re-analysis of the deposited data

How the results depend on the processing

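No paired analysis was possible because the labels give 1 group. Of the 10 synthesis genes, 5 were detected with the main rule and also with 3 of 4 arrays required, outlier flags ignored, every probe required, dim areas left out or any 1 replicate left out. With Agilent's positive and significant flag 8 were detected, and above the negative control limit 8. No synthesis gene was called for variance under any of 14 settings. At an unadjusted p under 0.05 the main count was 1 (Pla2g4a) and it was 0 with outlier flags ignored, with normexp, with no filter on dim probes, and without replicate 2 or replicate 4. Over all named genes the variance test called 1 with the main setting and 0 to 9 under the others, with 0 without replicate 1 or replicate 2 and 9 without replicate 3 or replicate 4. The fold range of Pla2g4a ran from 1.29 (without replicate 2) to 2.06, and was 1.52 with normexp. For the 9 prostanoid receptors 5 genes were detected, and 9 under both lenient rules, where the share of all named genes was 61.7% and 61%. The receptors added have 2 or 3 probes each, so these shares are not matched to them in number of probes. Scaling to the 75th percentile of all probes or to the median of detected probes moved every level by a near-constant amount. Averaging probes moved Tbxas1 to 1.82 and Ptgs1 to -2.37. The planned addition of probes by gene symbol was not run because the files hold no symbol column. Averaging replicates 3 and 4 was chosen after seeing the data. Low signal limits Alox5ap, Ltc4s and Ptges, with estimated errors of 4.6 to 5.70 on signals of 7.46 to 25.1.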

Other observations

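One of the 10 spots of the Lta4h probe stood apart on every array. Its signal was 30835, 35881, 42033 and 39117 in replicates 1 to 4, where the highest of the other spots used was 28166, 32009, 37975 and 35255, and it carried an outlier flag on all 4 arrays. A second Lta4h spot was flagged in replicate 3, at 31880, below the others.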
